A study of Homo sapiens with 6 samples.

Results

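The 10 genes described here are classical cadherins, the calcium-dependent adhesion molecules whose combinations mark pools of motor neurons in the spinal cord. They were taken by symbol from a fixed list and all were found among the 57820 Ensembl genes of a raw count table: the type I cadherins CDH1 and CDH2, and the type II cadherins CDH6, CDH7, CDH8, CDH9, CDH10, CDH11, CDH12 and CDH20. RNA had been sequenced in bulk from motor neurons made from H9 (wild-type genotype), a human embryonic stem cell line in wide use. In 3 libraries the cells had been under simulated microgravity (SMG), made by a 2D clinostat, an instrument that slowly rotates the cells and so averages out the pull of gravity on them, and in 3 libraries they had been at normal gravity (NG). Both groups came from motor neuron progenitors differentiated with 0.01 µM retinoic acid and 0.1 µM SAG, an agonist of Hedgehog signalling, so both rest on 1 cell line and on cells that had received these agents. How long the cells were rotated was not given in the sources used here, nor do the labels call the libraries separate cultures. The p-values therefore reflect the spread from library to library alone, and that spread may be technical.

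A classical cadherin spans the membrane, binds a cadherin of a neighbouring cell through its outermost extracellular domains, and holds catenins at its cytoplasmic tail, which link it to actin. Type II cadherins bind members of the same or of related kinds, and in chick and mouse spinal cord different motor pools carry different sets of them on top of a shared N-cadherin (CDH2). In those animals cadherin and catenin function is needed for motor neurons to gather into their pools and columns.

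Library totals ranged from 20986483 to 22685870 counts in SMG and from 16329907 to 21386253 in NG, and the 10 cadherins took 14700 to 15214 of these counts in SMG libraries and 10458 to 13819 in NG libraries. Levels are given as CPM, counts per 1000000 after TMM scaling, means are given ± SD with n = 3 per group, and changes are log2 fold changes, SMG minus NG, ± SE, from edgeR's quasi-likelihood test with Benjamini-Hochberg adjustment over 17803 tested genes and a threshold of 0.05. The 8 listed motor neuron markers were all detected. MNX1, ISL1, LHX3, CHAT and SLC18A3 had group means of 17.7 to 119.8 CPM. SLC5A7 (353 CPM in SMG and 311 CPM in NG) and STMN2 (1856 and 2012 CPM) were above these. PRPH was far below them, at 2.62 CPM in SMG and 2.29 CPM in NG. SOX2 (255 CPM in SMG and 270 CPM in NG) and MKI67 (298 CPM in SMG and 310 CPM in NG), markers of progenitors and of cycling cells, were detected too. These 2 did not pass, but 3 of 8 progenitor and 4 of 6 cell cycle markers were lower in SMG and 0 higher. Of all tested genes 18.5% were lower and 17.3% higher. In bulk RNA, fewer cells of a kind and less RNA per cell cannot be told apart.

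Of the 10 cadherins, CDH8 and CDH9 were higher in SMG, CDH12 and CDH1 were lower, and 6 did not pass. CDH8 was 1.43-fold higher in SMG and CDH12 was at 0.70 of its NG level, while CDH9 and CDH1 had few counts in every library. The share called, 4 of 10, was close to the background, since 35.8% of all tested genes passed, 17.3% higher and 18.5% lower. The median log2 fold change of the 10 was 0.03 against 0.00 for all tested genes. CDH1 and CDH9 reached the count filter through 1 group alone, NG for CDH1 and SMG for CDH9, and so had to differ, which leaves the count of calls no support for a change of the family. With the dependence of each library on GC content and transcript length taken out (the trend), CDH2, CDH6 and CDH10 also passed, giving 5 higher and 2 lower, where 31.9% of genes passed, 16.9% higher and 14.9% lower. With a replicate block as well there were 4 and 2, beside 30.7% of genes, 16.2% higher and 14.5% lower. CDH1 and CDH9 had no adjusted p with DESeq2 or with a filter of 1 CPM, which left 1 higher and 1 lower. The background was 26.1% of genes with DESeq2 (12.8% higher and 13.3% lower) and 40.5% with the filter (19.9% higher and 20.6% lower). The DESeq2 share is of all 17803 genes, also those without an adjusted p, so it is low for a comparison with the 8 members that had one.

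**Figure D1:**
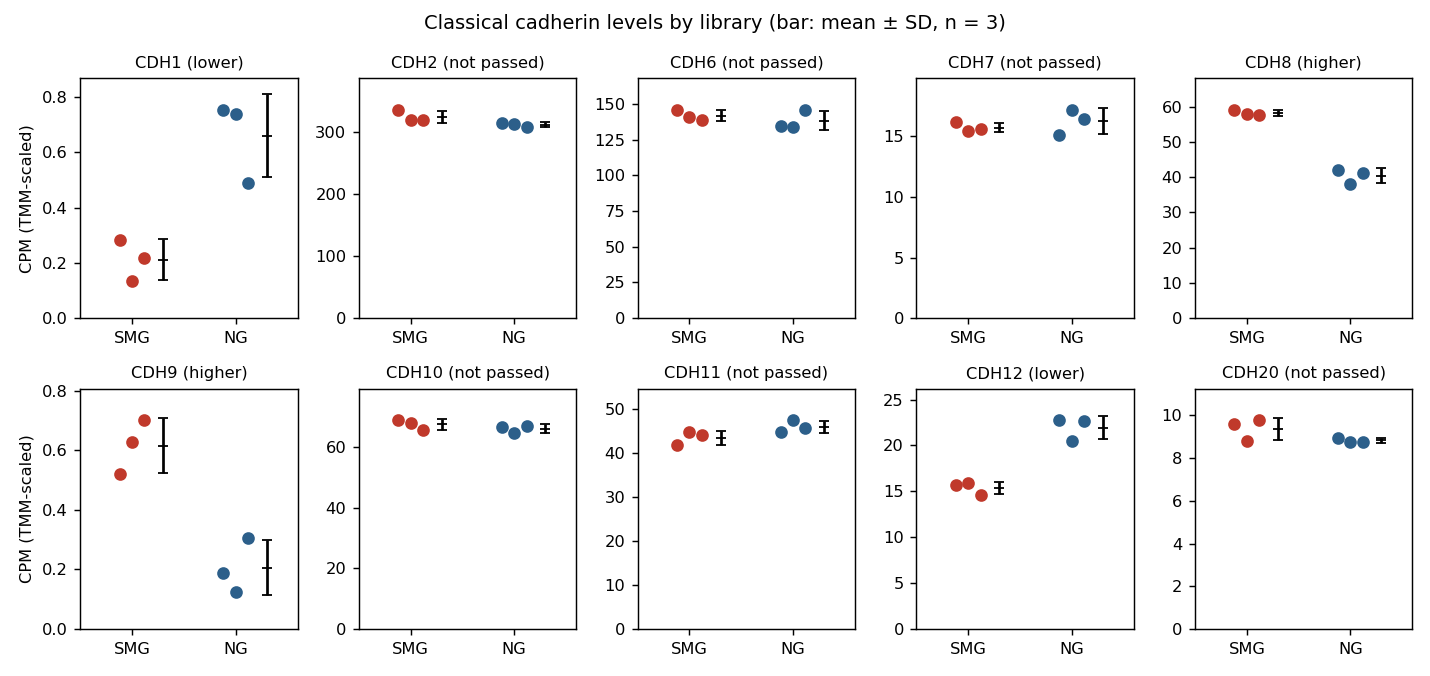
CPM of each of the 10 cadherins in every library, SMG left of NG; dots are libraries and bars mean ± SD (n = 3), each panel with its own axis from 0. CDH8 lies at 57.5 to 59.1 CPM in SMG and 38.1 to 42.1 CPM in NG, and CDH12 at 14.6 to 15.9 CPM in SMG and 20.4 to 22.7 CPM in NG, while CDH6, CDH7, CDH10, CDH11 and CDH20 overlap between groups.

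CDH8, a type II cadherin of cortex, striatum and spinal cord, was higher in SMG. Its level was 59.1, 57.8 and 57.5 CPM in the SMG libraries, against 42.1, 38.1 and 41.3 CPM in the NG libraries. Every SMG library lay above every NG library, which held for 22.6% of all tested genes. The mean was 58.2 ± 0.862 CPM in SMG and 40.5 ± 2.11 CPM in NG. The log2 fold change was 0.52 ± 0.05, with an edgeR adjusted p of 3.09e-09 and a 95% interval from 0.42 to 0.62. In mouse, the ETS factor Etv4 (Pea3) is needed for the normal pattern of Cdh8 in motor pools. ETV4 was a weakly expressed gene here, at 2.63 CPM in SMG and 2.19 CPM in NG, and did not pass (0.27 ± 0.17, edgeR adjusted p = 0.219).

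CDH12, a type II cadherin of brain, moved the other way. It was at 15.7, 15.9 and 14.6 CPM in the SMG libraries, against 22.7, 20.4 and 22.6 CPM in the NG libraries. The highest SMG library lay below the lowest NG library, which held for 23.6% of all tested genes. Means were 15.4 ± 0.661 CPM in SMG and 21.9 ± 1.28 CPM in NG, with a log2 fold change of -0.51 ± 0.07, a 95% interval from -0.66 to -0.37 and an edgeR adjusted p of 1.74e-06. CDH12 has pseudogenes, and the 4 named CDH12P1 to CDH12P4 held 8 to 19 counts together in the SMG libraries and 13 to 17 in the NG libraries, beside 332 to 353 counts of CDH12 in SMG and 332 to 482 in NG. Handling of multi-mapping reads was not given in the sources used here. Any exchange of reads between CDH12 and these copies could not be followed.

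The pair could be compared within each library, where scaling plays no part. For every CDH12 count there were 3.77, 3.65 and 3.93 CDH8 counts in the SMG libraries, against 1.85, 1.86 and 1.82 in the NG libraries. All SMG libraries lay above all NG libraries, and the NG libraries lay close together. Relative to 1000 counts of CDH2, CDH8 had 175.9 to 181.3 counts in SMG and 121.6 to 133.8 in NG, and CDH12 had 45.8 to 49.7 in SMG and 65.3 to 73.3 in NG. This pair was chosen for its opposite changes, so the ratio is given as a description, with no test.

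**Figure D2:**
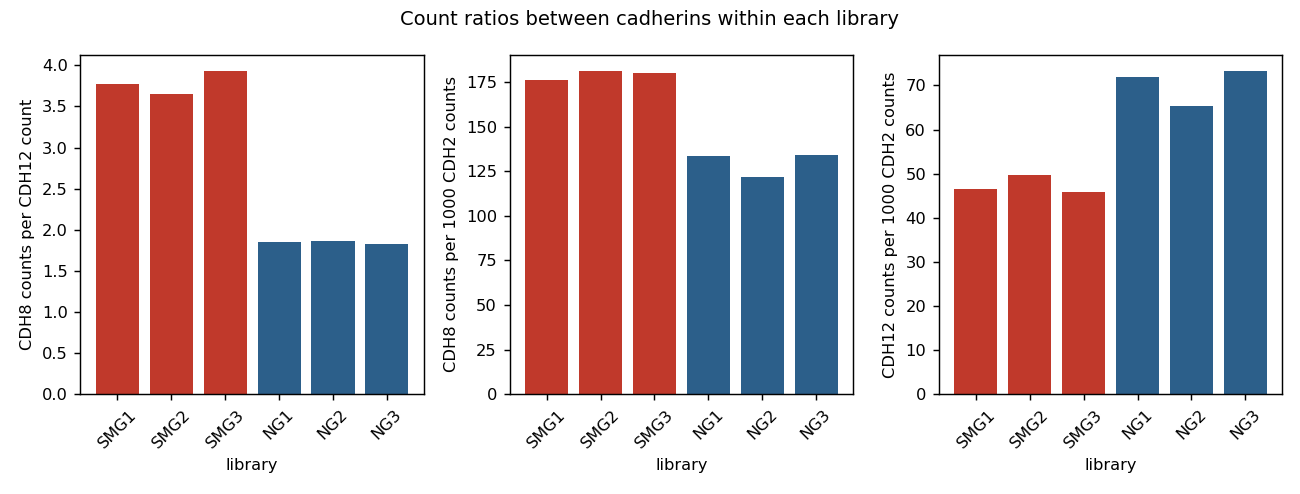
Ratios of raw counts within each library: CDH8 per CDH12 count, and CDH8 and CDH12 per 1000 CDH2 counts, with a bar for each of the 3 SMG and 3 NG libraries and axes from 0. The CDH8 to CDH12 ratio is 3.65 to 3.93 in SMG and 1.82 to 1.86 in NG.

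CDH9 and CDH1 passed the test on few reads. CDH9, a type II cadherin that mouse phrenic motor neurons carry together with Cdh6 and Cdh10, had 11, 14 and 16 counts in the SMG libraries, against 4, 2 and 5 in the NG libraries. Its mean was 0.616 ± 0.0914 CPM in SMG and 0.206 ± 0.0920 CPM in NG (log2 fold change 1.57 ± 0.44, edgeR adjusted p = 0.00589). The 95% interval was wide, from 0.67 to 2.47. CDH1, the E-cadherin of epithelia and of pluripotent stem cells, had 6, 3 and 5 counts in the SMG libraries, against 16, 12 and 8 in the NG libraries. That is 0.212 ± 0.0745 CPM in SMG and 0.660 ± 0.150 CPM in NG, a log2 fold change of -1.63 ± 0.42 (edgeR adjusted p = 0.00321), with an interval from -2.50 to -0.77. Among all tested genes the groups did not overlap for 46.3% (SMG above NG in 22.6% and below it in 23.6%). They did not overlap for CDH9 or CDH1, but here the count filter had fixed this in advance. Each gene reached the filter's cutoff in 3 libraries of 1 group and 0 of the other. The p-values of both genes carry the same limit. DESeq2 gave neither an adjusted p, and its unadjusted p was 0.00795 for CDH1 and 0.0145 for CDH9.

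Of 8 listed markers of epithelial or pluripotent cells 3 were tested and 1 passed, beside 18.5% of all tested genes lower. KRT8, an epithelial keratin, fell (6.56 CPM in SMG and 8.54 CPM in NG, log2 fold change -0.39 ± 0.11, edgeR adjusted p = 0.00630), but did not pass without NG library 1 (-0.31, edgeR adjusted p = 0.0737). EPCAM (edgeR adjusted p = 0.0969) and CLDN6 (0.388) did not pass. The summed level of all 8 listed markers was 12.4 to 14.3 CPM in SMG and 14.4 to 17.5 CPM in NG, with KRT8 as its largest part. Of the 8 markers 0 had no count in every library. POU5F1 and NANOG, which define pluripotent cells, had group means of 0.0603 and 0.0146 CPM in SMG and 0.0880 and 0.124 CPM in NG. CDH3, the P-cadherin of epithelia and the next protein-coding gene to CDH1 on chromosome 16, was also lower, at 5.88 ± 0.368 CPM in SMG and 7.88 ± 0.290 CPM in NG (-0.42 ± 0.10, edgeR adjusted p = 0.00208). The part of such cells in the CDH1 value was not tested.

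CDH2 (N-cadherin), the type I cadherin shared by nearly all neural cells, was the most abundant member. It had 336.2, 318.8 and 319.6 CPM in SMG libraries, against 315.5, 313.0 and 308.4 CPM in NG libraries, so the groups did not overlap but lay close together. The log2 fold change was 0.06 ± 0.03 (edgeR adjusted p = 0.186), with a 95% interval from -0.01 to 0.12. With the trend of length and GC content removed it was 0.11 (edgeR adjusted p = 0.00298). Whether CDH2 passed thus depended on the trend.

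The other type II members differed by less than the test could resolve. CDH6, found in chick and mouse motor pools and in fetal kidney, had 145.9, 140.8 and 138.7 CPM in SMG libraries, against 134.6, 133.8 and 145.9 CPM in NG libraries (0.04 ± 0.04, edgeR adjusted p = 0.465). CDH10 had 65.4 to 68.7 CPM in SMG and 64.5 to 66.9 CPM in NG (0.03 ± 0.04, edgeR adjusted p = 0.659). Both passed with the trend removed, at 0.09 (edgeR adjusted p = 0.0348) and 0.13 (0.00872). CDH11, first described in osteoblasts and common in mesenchyme, had 41.8 to 44.8 CPM in SMG and 44.8 to 47.5 CPM in NG, with ranges that met at their edge (-0.08 ± 0.05, edgeR adjusted p = 0.242).

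CDH20, known in chick as MN-cadherin for its expression in motor neurons, and CDH7 were, per kb of exon, the least expressed members apart from CDH9 and CDH1. CDH20 had 9.58, 8.80 and 9.77 CPM in SMG libraries, against 8.96, 8.75 and 8.78 CPM in NG libraries, and 1 SMG library lay within the NG range (0.09 ± 0.09, edgeR adjusted p = 0.506). CDH7 had 16.1, 15.4 and 15.6 CPM in SMG libraries, against 15.1, 17.2 and 16.5 CPM in NG libraries, all SMG values lying inside the NG range (-0.04 ± 0.08, edgeR adjusted p = 0.689). Their 95% intervals, from -0.10 to 0.28 for CDH20 and from -0.20 to 0.11 for CDH7, do not show equal expression.

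**Figure D3:**
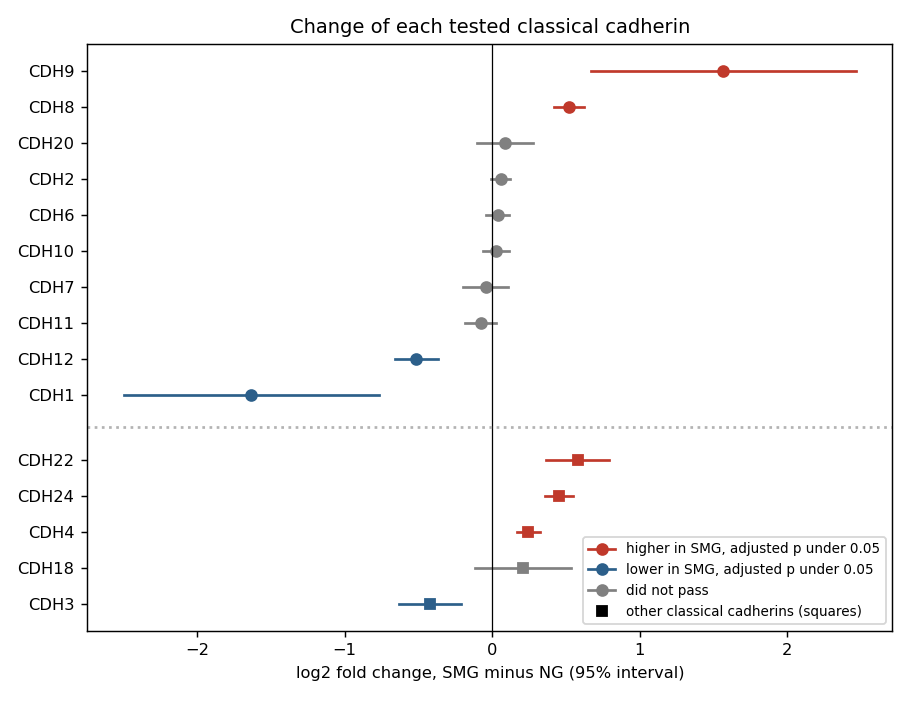
Log2 fold change, SMG minus NG, with its 95% interval, for the 10 listed cadherins (circles) and the 5 other classical cadherins tested (squares); red passed and was higher in SMG, blue passed and was lower, grey did not pass. CDH8 (0.52) and CDH12 (-0.51) have narrow intervals on opposite sides of 0, and CDH9 and CDH1 wide ones.

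Levels were set side by side per kb of annotated exon. In both groups CDH2 was highest, at 65.6 ± 1.98 CPM per kb in SMG and 63.1 ± 0.736 in NG, followed by CDH10 (18.4 ± 0.473 in SMG and 17.6 to 18.3 in NG) and CDH6 (11.5 ± 0.296 in SMG and 11.2 ± 0.546 in NG). CDH2 thus made up 60.1% of the summed level of the 10 genes in SMG and 59.6% in NG. The order changed in the middle. CDH8 was number 4 in SMG at 4.30 ± 0.0637 CPM per kb and number 6 in NG at 2.99 ± 0.156, while CDH12 was number 6 in SMG at 2.59 ± 0.112 and number 4 in NG at 3.70 ± 0.217. CDH11 lay between them in both groups, at 3.25 ± 0.118 in SMG and 3.44 ± 0.102 in NG, and in NG its range overlapped that of CDH12. CDH20, CDH7, CDH9 and CDH1 followed in SMG and CDH20, CDH7, CDH1 and CDH9 in NG, and no other neighbours in the order overlapped in their ranges in either group.

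With the length of the longest transcript in place of all exons, CDH11 was number 4 in both groups, CDH8 was number 5 in SMG and 6 in NG, and CDH12 was number 6 in SMG and 5 in NG. In SMG the ranges of CDH11 and CDH8 then overlapped. The place of CDH8 against CDH11 in SMG depends on the length used. The 8 type II genes together held 42.7 to 44.3 CPM per kb in SMG libraries and 41.6 to 43.7 in NG libraries. These ranges overlapped, but CDH10 and CDH6 hold most of this sum, so it could move little with CDH8 or CDH12. It also leaves out type II genes outside the list, such as CDH24, at 20.7 CPM per kb in SMG and 15.1 in NG. The sum thus does not describe all type II cadherins.

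**Figure D4:**
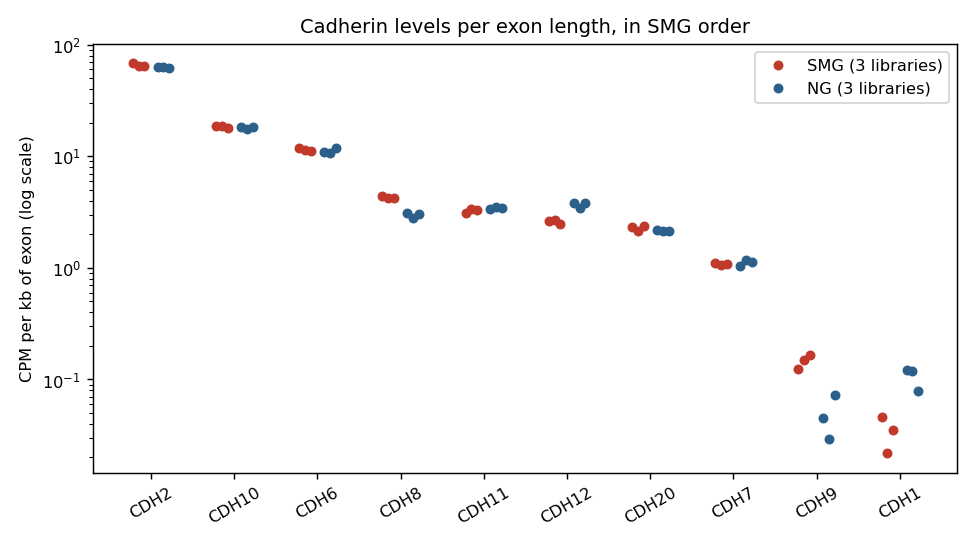
Level of each of the 10 cadherins in CPM per kb of exon (log axis), by library, ordered by the SMG mean, SMG left of NG for each gene. CDH2 stands at 62.3 to 67.9 in all libraries, and CDH8 and CDH12 exchange places around CDH11.

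The members lie on chromosome 5 of GRCh38.p14 (CDH6, CDH9, CDH10 and CDH12), chromosome 16 (CDH1, CDH8 and CDH11) and chromosome 18 (CDH2, CDH7 and CDH20), in part far from each other, with 109 protein-coding genes between CDH2 and CDH20. On chromosome 5, CDH9 was higher, CDH12 was lower and the others did not pass, and on chromosome 16, CDH8 was higher and CDH1 lower. In the same GRCh38.p14 annotation no protein-coding gene lies between CDH8 and CDH11, which stood at 0.52 and -0.08. On chromosome 18 the 3 members ranged from -0.04 to 0.09, and 0 of them passed. Exons shared with other annotated genes touch CDH1, CDH2, CDH6, CDH8 and CDH11, and whether counting used strand was not given in the sources used here. CDH8-AS1, which overlaps CDH8 on the opposite strand, had 0 to 2 counts in SMG and 1 to 2 in NG, and the gene that overlaps CDH1 had 0 in all libraries.

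Of the 8 remaining classical cadherins 5 were tested, and 3 rose and 1 fell, beside 17.3% of all tested genes higher and 18.5% lower. CDH24, a type II cadherin, had 76.7, 79.0 and 76.7 CPM in SMG libraries, against 57.4, 59.6 and 52.4 CPM in NG libraries (0.46 ± 0.05, edgeR adjusted p = 1.23e-08). CDH22 had 8.93 to 9.63 CPM in SMG and 5.73 to 7.02 CPM in NG (0.58 ± 0.10), and CDH4, the R-cadherin of retina and brain, 123.7 to 128.2 CPM in SMG and 100.6 to 109.5 CPM in NG (0.24 ± 0.04). All SMG libraries lay above all NG libraries for each of these, as they did for 22.6% of all tested genes. Without the length and GC trend CDH4 was at 0.10, CDH22 at 0.41 and CDH24 at 0.31, and all passed. Per kb of exon CDH24 had 20.7 in SMG and 15.1 in NG, so that its mean was above that of CDH10 in SMG and below it in NG. CDH15, CDH5 and CDH19 had too few counts to be tested.

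Catenins, the cytoplasmic partners, had 4 higher and 1 lower of 10 tested genes, with a median of 0.06, and 2 higher and 1 lower with the trend removed. Of all tested genes 17.3% were higher and 18.5% lower, or 16.9% and 14.9% with the trend removed. CTNNB1 (β-catenin), which binds the cadherin tail, was at 471 CPM in SMG and 476 CPM in NG (-0.01 ± 0.04, edgeR adjusted p = 0.797). CTNND1 (p120-catenin), which keeps cadherins at the membrane, was at 374 CPM in SMG and 377 CPM in NG and did not pass either (edgeR adjusted p = 0.824). Among the called genes, ARVCF, a p120 relative, was at 0.28 ± 0.04 and JUP (plakoglobin), the relative of β-catenin, at 0.26 ± 0.04, and they were at 0.11 and 0.15 with the trend removed. CTNNBIP1, an inhibitor of β-catenin with TCF factors, was at 0.16 ± 0.05, and did not pass with the trend removed (edgeR adjusted p = 0.112), with DESeq2 (0.0549) or without any 1 of SMG libraries 2 and 3 and NG libraries 1 and 3 (0.0557 to 0.109). PKP4, of the p120 family, fell (-0.22 ± 0.05).

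Genes that join cadherin junctions to actin, with the nectins, had 3 higher and 5 lower of 13, with a median of 0.00, and 2 higher and 4 lower with the trend removed. The background for this list and the next was 17.3% higher and 18.5% lower, or 16.9% and 14.9% with the trend removed. LIMA1, an actin-bundling protein, fell (-0.31 ± 0.06), as did IQGAP1, a scaffold (-0.18 ± 0.04). NECTIN3, an adhesion receptor, was at -0.17 ± 0.05, or -0.06 with the trend removed (edgeR adjusted p = 0.420), and did not pass with DESeq2 (0.0526) or without SMG library 2 (0.0521). ZYX (zyxin) was at 0.30 ± 0.05, or 0.16 with the trend removed. Proteases that mature or shed cadherins, with γ-secretase, had 1 higher and 7 lower of 12, with a median of -0.12, and the same counts with the trend removed. ADAM10, the main sheddase of CDH1 and CDH2, was at 189 CPM in SMG and 206 CPM in NG (-0.12 ± 0.03, edgeR adjusted p = 0.00537), or at -0.08 with the trend removed, and did not pass without SMG library 3 (-0.10, edgeR adjusted p = 0.0515). The largest differences in this list were those of PCSK6, a proprotein convertase (-0.40 ± 0.12), the membrane protease MMP14 (-0.36 ± 0.11), ADAM9 (-0.34 ± 0.05) and the γ-secretase subunit PSENEN (-0.30 ± 0.09). Of these, ADAM9 passed in all alternatives. PCSK6 did not pass with DESeq2 (adjusted p = 0.0627) or without any 1 of SMG libraries 1 and 3 and NG libraries 1 and 2 (edgeR adjusted p = 0.0544 to 0.0740). MMP14 did not pass without SMG library 1, SMG library 3 or NG library 2 (edgeR adjusted p = 0.0543 to 0.0898). PSENEN did not pass with DESeq2 (adjusted p = 0.0510), nor without SMG library 1 (edgeR adjusted p = 0.0621) or NG library 3 (0.0690).

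Transcription factors linked to cadherin expression or to motor pools had 4 higher and 3 lower of 13 tested, or 2 and 2 with the trend removed. FOXP1, of limb-level motor columns, was at 181 CPM in SMG and 111 CPM in NG (0.70 ± 0.04). ISL1 rose by 0.22 ± 0.04, ETV1, an ETS factor of motor pools, fell (-0.27 ± 0.05), and POU3F1 was at 0.22 ± 0.08, or 0.05 with the trend removed (edgeR adjusted p = 0.628). POU3F1 also did not pass with DESeq2 (adjusted p = 0.0986), without robust estimation (0.0505), or without any 1 of SMG libraries 2 and 3 and NG libraries 1 and 3 (0.106 to 0.199). ZEB1, a repressor of CDH1, was at 248 CPM in SMG and 273 CPM in NG (-0.14 ± 0.03, edgeR adjusted p = 0.00161), or at -0.07 with the trend removed, where it did not pass (edgeR adjusted p = 0.0520). ZEB2, its relative, was at 173.4 CPM in SMG and 189.7 CPM in NG (-0.13 ± 0.03), or at -0.08 with the trend removed (edgeR adjusted p = 0.0388). SNAI2, TWIST2, GRHL2 and KLF4 had too few counts to be tested. In the wider superfamily 12 of 25 tested genes rose and 6 fell, or 9 and 7 with the trend removed. PCDH19, a protocadherin that acts with N-cadherin in zebrafish, was at 0.61 ± 0.04, FAT2 at 0.58 ± 0.16 (0.46 without SMG library 3, edgeR adjusted p = 0.0539), DCHS1, a ligand of FAT cadherins, at 0.46 ± 0.04 (0.26 with the trend removed), and RET, a GDNF receptor with cadherin-like domains, at 0.45 ± 0.04. These lists hold few genes, and their shares stand beside a background of 17.3% higher and 18.5% lower.

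**Figure D5:**
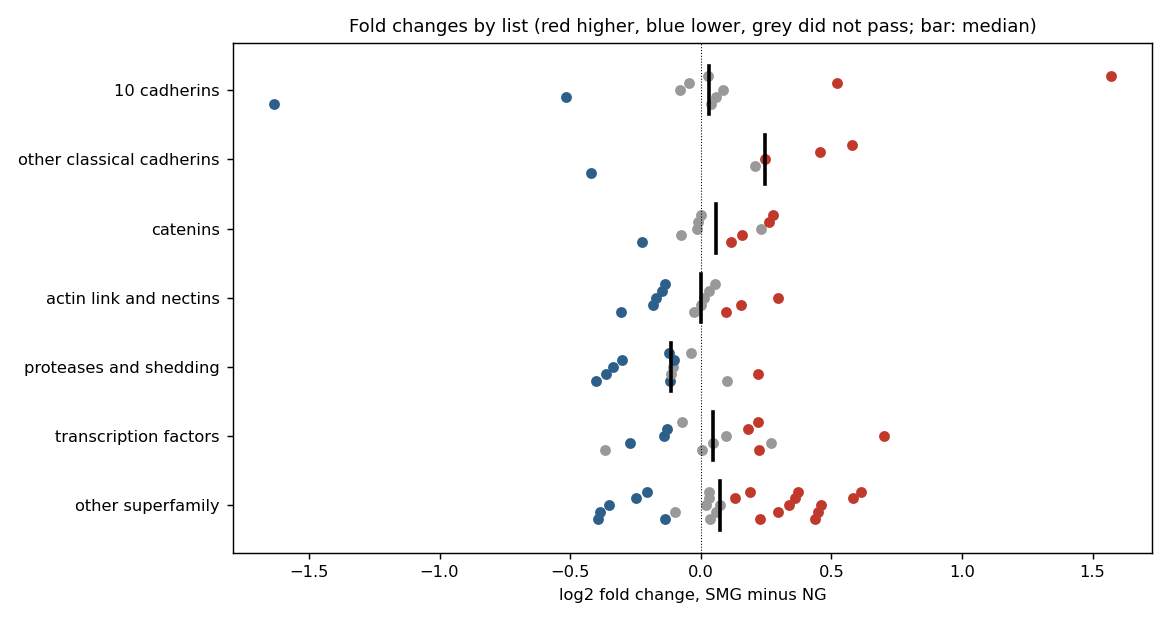
Log2 fold change, SMG minus NG, of every tested gene in 7 lists; red passed and was higher in SMG, blue passed and was lower, grey did not pass, and the black bar is the list's median. The proteases sit mostly below 0 (median -0.12), the catenins around 0.06 and the 10 cadherins around 0.03 with CDH1 and CDH9 at the ends.

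Markers of other cell types were counted against the same background, 17.3% of all tested genes higher and 18.5% lower, or 16.9% and 14.9% with the trend removed. Of 8 motor neuron markers 5 were higher and 1 lower, and 3 were higher and 0 lower with the trend removed. Their summed level was 2507 to 2555 CPM in SMG and 2549 to 2597 CPM in NG. STMN2, the marker called lower, held most of that sum (1856 CPM in SMG and 2012 CPM in NG), so the sum does not follow the 5 that were higher. Of 8 progenitor markers 0 were higher and 3 lower (3436 to 3562 CPM in SMG and 3437 to 3700 CPM in NG). Of 6 cell cycle markers 0 were higher and 4 lower, and 0 and 5 with the trend removed. Their sums did not overlap (941 to 961 CPM in SMG and 1121 to 1169 CPM in NG). TOP2A held the largest part (429 CPM in SMG and 558 CPM in NG), and MKI67 and AURKB did not pass in the main fit. Sums of the neural crest, mesenchymal and epithelial or pluripotent markers did not overlap either. Among single tested genes, SMG lay below NG without overlap in 23.6%. Of 7 tested interneuron markers 1 was higher and 1 lower (41.9 to 45.2 CPM in SMG and 43.8 to 50.1 CPM in NG), of 4 glial markers 1 and 1 (177 to 185 CPM in SMG and 166 to 179 CPM in NG), of 4 mesenchymal markers 0 and 1 (3.78 to 4.82 CPM in SMG and 5.05 to 5.33 CPM in NG), and of 2 neural crest markers 0 and 1 (230 to 233 CPM in SMG and 243 to 270 CPM in NG). With the trend removed the counts higher and lower were 0 and 3 for progenitor, 0 and 1 for interneuron, 1 and 0 for glial, 0 and 1 for mesenchymal, 0 and 0 for neural crest and 0 and 1 for epithelial or pluripotent markers. In each of these lists 0 markers were at 0 in all libraries. The part of cell makeup in the CDH8 and CDH12 values was not tested.

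Across the 6 libraries, the genes with the most similar log2 CPM to CDH9, the highest called member, were YLPM1, USB1 and BCL9 (Pearson r from 0.996 to 0.997), and to CDH1, the lowest, ADHFE1, PANTR1 and EGFR (0.993 to 0.997). For CDH8 they were DRAXIN, SAMHD1 and UNC5C (0.998 to 0.999), and for CDH12 RHOU, PTPN13 and MDM1 (0.997 to 0.999), both members being chosen after their values were seen. DRAXIN and UNC5C are an axon guidance ligand and a netrin receptor. Such values are common with 6 libraries in 2 groups. Of about 13524 genes compared, 603 reached 0.95 with CDH8, 884 with CDH12, 201 with CDH9 and 213 with CDH1. CDH9 and CDH1 had few counts, and the count filter had fixed their split between groups, so their likeness values carry that limit too.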

How the data were processed

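Counts of reads per Ensembl gene, deposited by the authors as whole numbers without normalization, were the only data used. Per the submitters' processing notes, HISAT2, SAMtools, featureCounts and DESeq2 were used with hg19. Tool versions, annotation, strand use and multi-mapping rules were not given in the sources used here. Per the labels' protocols, 1.3 µg of total RNA went into each mRNA library.

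Symbols came from a gene name table (51996 genes) and GENCODE 29 (52338 in all), which also gave exon length, GC content, gene type and overlaps. GENCODE 29 is on another build, so no coordinates of it were printed. Genes passing filterByExpr were scaled by TMM and tested by edgeR's quasi-likelihood test (robust) with Benjamini-Hochberg adjustment. Intervals of log2 fold changes use the test's total degrees of freedom, which add prior ones, estimated across genes, to the residual ones. Tested on simulated data for this comparison (17803 genes), the fit recovered 50% of genes altered 1.2-fold, 78% altered 1.5-fold and 100% altered 2-fold. Of its calls there, 6 were false (3.57%). Only 49 or 50 genes were altered at each size, against 6376 genes called in the data, so recovery in the data could differ. The median SE was 0.0524 for genes of 10 CPM or more. Within a group, libraries differed beyond counting noise (chi-square per degree of freedom 1.59 to 3.37), so each was kept as a sample. Alternatives were DESeq2, limma-voom, other scalings and filters, no robust estimation, a replicate block, each library left out, removal of the length and GC trend by splines, and protein-coding genes alone. The longest transcript as length was an alternative added after seeing the data.

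The members and lists were chosen with earlier results of these data known. PCDH20 matched no gene. By rule the text names all members, up to 4 called genes of largest change from each partner list, and the 3 genes most alike to the highest and the lowest called member among genes of at least 2 CPM. Other genes were named after their values were seen. Software was DESeq2 1.42.0, limma 3.58.1, edgeR 4.0.16 and R 4.3.3.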

Additional observations from a re-analysis of the deposited data

How the results depend on the processing

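CDH8 remained higher and CDH12 lower, past the threshold, in all 18 alternatives, at 0.48 to 0.57 and -0.56 to -0.44 on the log2 scale. DESeq2 gave 1 member higher and 1 lower, as did the filter of 1 CPM, because CDH1 and CDH9 had no adjusted p there. Both passed in the other 16 alternatives. With the count filter of the main fit they entered through 1 group alone, so passing under that filter adds no support for a change. With the length and GC trend removed 5 members were higher, and 4 with the replicate block as well, where CDH6 did not pass (edgeR adjusted p = 0.0529). CDH7 changed sign in these fits, at 0.0038 without the block and 0.0010 with it, and the cause was not tested. Leaving out each library in turn changed no member's call, and 4961 to 6092 genes were then called. The library numbers did not pair the libraries (correlation of same-numbered deviations from -0.06 to 0.04). The replicate block alone changed no member's call and gave 6333 called genes, against 6376 without it. With the longest transcript as length, a choice made after seeing the data, CDH8 took 4.56% of the summed level in SMG and 3.26% in NG, and CDH12 took 2.81% in SMG and 4.13% in NG. Depth limits CDH1 and CDH9, which had at most 16 counts in a library.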
